A study of Mus musculus with 7 samples.

Results

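Retained-intron reads are the sense reads of nuclear protein-coding genes whose best placements all lie on GENCODE transcripts of the type retained_intron, that is, on annotated isoforms that keep sequence which the coding isoforms of the gene splice out. Each read lost its 6 leading bases, was allowed up to 2 mismatches and had to belong to 1 gene. These reads numbered 189274, of 43106 distinct sequences, and lay in 4460 of the 15841 nuclear protein-coding genes with any sense read. They were 3.46% of 5477015 sense reads of such genes (95% Clopper-Pearson interval 3.441% to 3.471%), and 95.1% of the sense reads fitted a coding isoform.

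The series is a RIP-seq study of mouse embryonic stem cells kept with LIF, in which a protein is pulled out of lysed nuclei by an antibody and the attached RNA is sequenced after template-switching cDNA synthesis. Of 7 libraries, 5 came from cells of strain 129X(M.castaneusX129) with an anti-Ezh2 antibody, 1 from Ezh2 null cells (strain label M.musculus) with that antibody and 1 from cells of strain 129X(M.castaneusX129) with IgG. Among the 5, 1 is labelled a technical and 1 a biological replicate, and 2 are deeper runs of 2 lanes each. The table used here lists 6540936 distinct read sequences with 34072479 reads and is tied by no label or header to any library. Its deposited name holds the abbreviations WT and BR, which were not taken to name a library. The table was therefore read as 1 pool, with no replicates and no control. Nothing is compared with IgG or with Ezh2 null cells. All intervals cover counting error only and take every read as independent, although PCR copies of a molecule look like separate ones.

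Introns are removed from a primary transcript by the spliceosome, which cuts at the donor site at an intron's start and the acceptor site at its end and joins the exons. When an intron is kept, the RNA often stays in the nucleus or is degraded in the cytoplasm, and in mammalian cells transcripts of the splicing kinase gene Clk1 and of Ogt, the gene of the enzyme that attaches O-GlcNAc to proteins, are known to be held in the nucleus in this form. An annotated retained-intron isoform is only evidence that such an RNA has been seen in some sample. A read of at most 40 bases inside an intron cannot tell a kept intron from a primary transcript that is still to be spliced or from another RNA of the same strand.

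The positions of the reads were set beside the annotation. This describes where the reads lie and does not check the label, because the reads were chosen with the same annotation. Of the retained-intron reads, 180298 (95.3%) lay wholly inside sequence that is exonic in a retained-intron isoform and in no other isoform of the gene, called a retained region here. A further 8872 (4.69%) lay there in part, and 104 (0.0549%) lay wholly in exons of other isoforms, where only the join of exons set the retained-intron isoform apart. Of the reads that touched a retained region, 99.2% were in regions inside an intron of a coding transcript and 0.775% were outside the span of the coding transcripts.

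A few positions carried many of these reads. A start position is the genomic base where a read's matched part begins, and since the reads are the reverse complement of the RNA, the matched part reaches from there towards the 5′ side of the RNA. The most-read start position of each of 10 selected genes is shown with the RNA-strand sequence around it. The sequences are given because the same 3 bases recur in several of them and are described over all positions further on. These are not the 10 highest positions, since the top position of Zfp945 held 1169 reads and that of Pak2 812, against 192 in Serbp1. In each line the leading 34 bases end at the start position, the next 6 stand opposite the read bases that were left out, and the 3 bases after those are in capitals. The sequences are the GENCODE transcripts' own, on GRCm38.
Kat6b (chr14:21625690-21625739, plus strand, 3676 reads): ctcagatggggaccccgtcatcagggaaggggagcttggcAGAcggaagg
Srsf11 (chr3:158031204-158031253, minus strand, 960 reads): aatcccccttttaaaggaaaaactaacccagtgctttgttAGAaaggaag
Ccnl1 (chr3:65951801-65951850, minus strand, 829 reads): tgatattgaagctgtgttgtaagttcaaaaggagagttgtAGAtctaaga
Ppid (chr3:79597398-79597447, plus strand, 1195 reads): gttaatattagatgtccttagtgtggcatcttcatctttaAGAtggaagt
Mier1 (chr4:103141839-103141888, plus strand, 413 reads): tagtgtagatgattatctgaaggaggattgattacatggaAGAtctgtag
Serbp1 (chr6:67272292-67272341, plus strand, 192 reads): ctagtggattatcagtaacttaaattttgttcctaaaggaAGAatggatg
Slc38a1 (chr15:96582366-96582415, minus strand, 1206 reads): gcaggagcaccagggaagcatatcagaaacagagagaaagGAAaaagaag
Fam49b (chr15:63958503-63958552, minus strand, 361 reads): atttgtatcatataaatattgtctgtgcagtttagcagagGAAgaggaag
Eif4a2 (chr16:23111960-23112009, plus strand, 371 reads): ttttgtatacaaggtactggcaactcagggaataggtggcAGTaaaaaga
Ogt (chrX:101652724-101652773, plus strand, 252 reads): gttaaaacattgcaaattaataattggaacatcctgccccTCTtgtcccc
The position of Kat6b held 52.8% of that gene's retained-intron reads, that of Srsf11 54.2%, and that of Ccnl1, a cyclin gene linked to splicing, 75.02%. In contrast the positions of Serbp1 and Fam49b held 7.62% and 10.4%.

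Retained-intron reads were less concentrated at their highest positions than coding reads of the same table. They had 21374 start positions with 8.86 reads each on average, against 18.5 reads at each of 281168 positions on coding isoforms. The upper 50% of retained-intron reads lay at 1371 positions (6.41% of them), against 2521 positions (0.897%) for coding reads. Positions with a single read were 35.4% of the retained-intron positions and 29.8% of the coding positions. The highest position held 3676 reads, in Kat6b, against 161504 in the coding part of Serbp1. Counted by start positions, retained-intron reads were 6.92% of the total rather than 3.46%.

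By gene, too, the reads were unevenly spread. Of the 4460 genes 699 had 1 such read, the median gene had 9, 649 had at least 50 and 27 had at least 1000. The 15 genes with most reads held 23.5% of them and 110 genes held the upper 50%. The 4460 genes were 48.9% of the 9119 coding genes for which GENCODE M21 lists a retained-intron isoform.

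**Figure D1:**
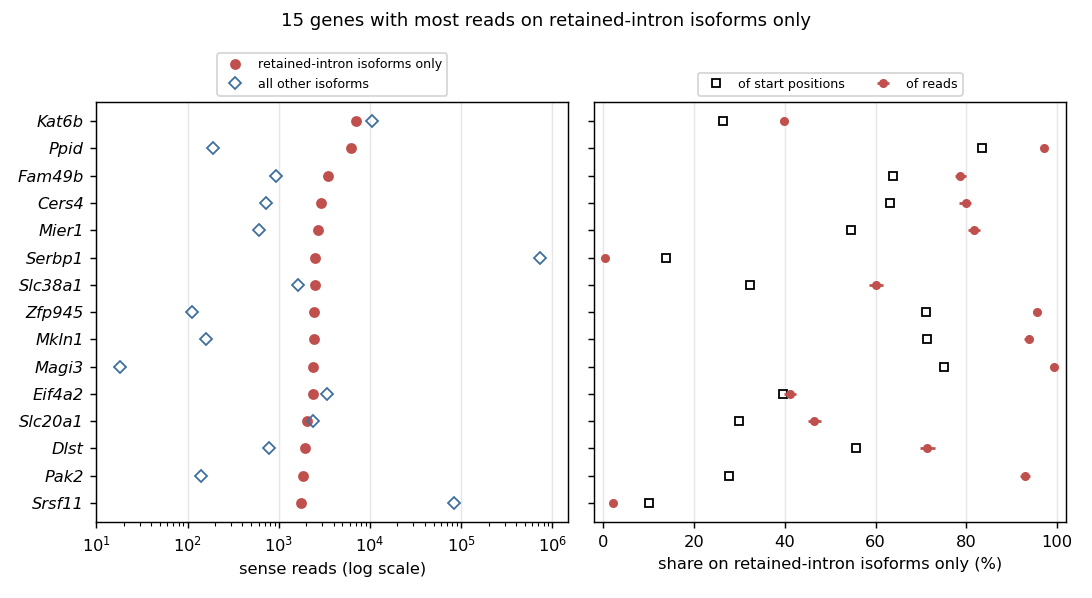
Sense reads of the 15 genes with most retained-intron reads (left, log scale; filled circles, retained-intron isoforms only; open diamonds, all other isoforms) and the share of reads and of start positions on retained-intron isoforms only (right, in percent; bars are 95% Clopper-Pearson intervals of the read share). Serbp1 and Srsf11 stand apart with shares of 0.347% and 2.08% of reads, while Magi3 and Ppid reach 99.3% and 97.0%; with no mismatch allowed Magi3 had 62.5%.

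In 10 of the 15 genes with most retained-intron reads, these were the larger part of the gene's sense reads. Kat6b, which encodes a histone acetyltransferase (chromosome 14, 21481434 to 21672478, plus strand), had the most, 6966 reads at 133 positions (Poisson interval 6803.4 to 7131.5), which were 39.8% of its 17494 sense reads (39.1% to 40.5%) and 26.3% of its start positions. Its main region, an intronic stretch of 536 bases at 21625216 to 21625751, held 5263 of them. Ppid, which encodes the Hsp90 co-chaperone cyclophilin 40 (chromosome 3, 79591342 to 79603650, plus strand), came next with 6197 reads at 100 positions, 97.0% of 6388 sense reads (96.6% to 97.4%). In Ppid the retained regions held 2304 reads per kb and the other exons 98.0 reads per kb, and no antisense read fell on a retained-intron isoform.

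Fam49b, which encodes a regulator of Rac1 (chromosome 15, 63929097 to 64060478, minus strand), had 3467 reads at 85 positions, 78.6% of its sense reads. Cers4, which encodes a ceramide synthase (chromosome 8, 4493026 to 4531680, plus strand), had 2894 reads at 161 positions, the most positions of the 15 genes, or 79.8% of its sense reads. A further 1224 reads matched its other isoforms and other genes equally well, and with all shared reads the share of Cers4 was 59.7%. Slc38a1, a neutral amino acid transporter gene, had 2473 reads, 60.2% of its total, but 1206 of them were at 1 position and by start positions the share was 32.4%. With no mismatch allowed Slc38a1 had 166 of 1630 reads (10.2%). Slc20a1, a sodium-phosphate cotransporter gene, had 2056 reads (46.5%), and Dlst, which encodes the succinyltransferase of the 2-oxoglutarate dehydrogenase complex, 1963 reads at 98 positions (71.4%).

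Mier1, a gene of a transcriptional repressor that recruits histone deacetylases, had 2726 reads (81.7%), and Mkln1, which encodes the ubiquitin ligase component muskelin, had 2406 (93.8%). With all shared reads the share was 87.6% in Mier1 and 78.0% in Mkln1. Magi3, the gene of a membrane scaffold protein, had 2384 retained-intron reads at 24 positions and 18 other sense reads. With no mismatch allowed 20 of 32 reads of Magi3 were retained-intron reads (62.5%), so that nearly all of its reads had a mismatch. The zinc finger gene Zfp945 had 2441 reads (95.7%), of which 1169 were at 1 position of its main region, and by start positions its share was 71.1%. A further 641 reads matched its other isoforms and other genes equally well, and with them the share of Zfp945 was 76.4%. Pak2, a gene of a p21-activated kinase, had 1866 reads (93.0%) at 10 positions, while a further 42473 reads matched its retained-intron isoforms and other genes equally well, and with no mismatch allowed its share was 3.76%. The values of Magi3 and Pak2, and that of Slc38a1 given above, thus rest mostly on reads with mismatches. Which sequence these reads came from was not tested.

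Genes of RNA metabolism were present among the 15 as well. Eif4a2, an RNA helicase gene of translation initiation (chromosome 16, 23107444 to 23114136, plus strand), had 2382 reads at 89 positions, 41.1% of its total. Its retained regions and its other exons held 1152 and 1042 reads per kb, with shared reads left out. A further 1604 reads matched its other isoforms and other genes equally well, against 15 for its retained-intron isoforms. With all shared reads the share of Eif4a2 was 32.4%. Serbp1, which encodes an mRNA-binding protein and had the most sense reads of any nuclear coding gene in the table, had 2521 retained-intron reads at 106 positions against 724592 other sense reads. They were 0.347% of its reads but 13.9% of its start positions. Srsf11, a splicing regulator gene of the SR family, had 1771 such reads against 83257 others (2.08%). For Serbp1 and Srsf11 the retained regions held 584 and 362 reads per kb, and their other exons 45860 and 23446.

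**Figure D2:**
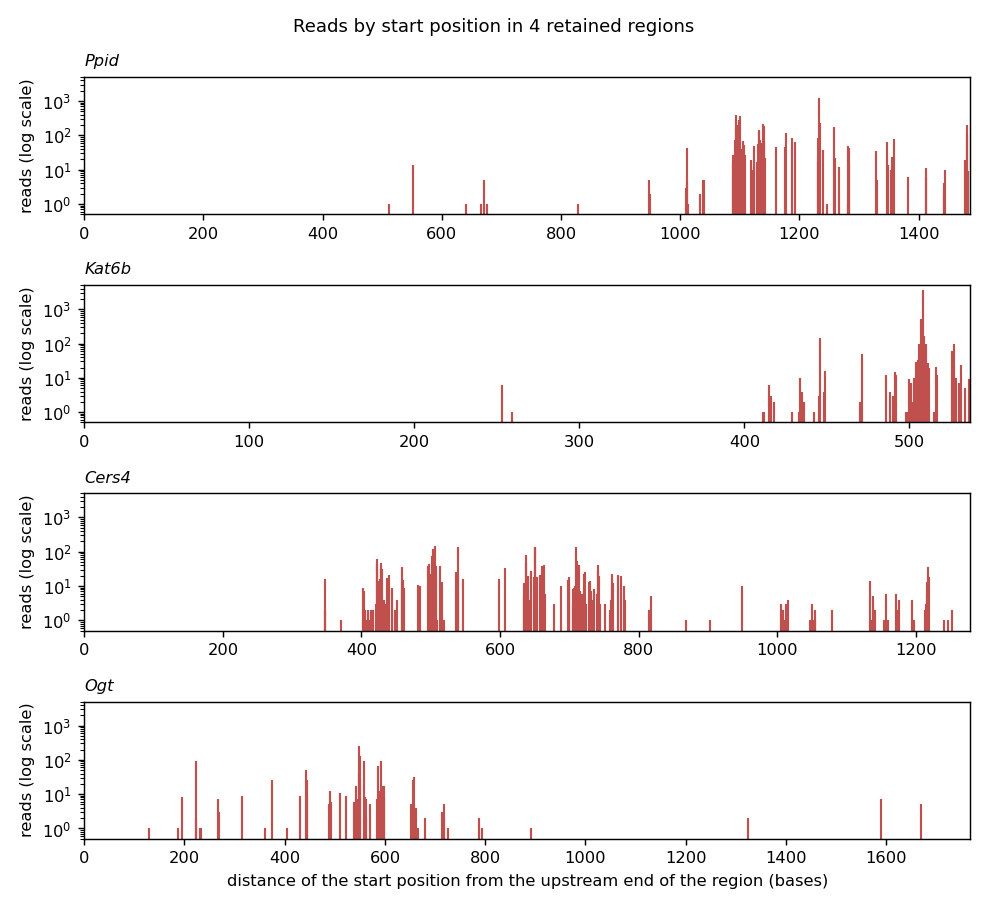
Reads at each start position (log scale) against the distance of the position from the upstream end of the main retained region, for Ppid, Kat6b, Cers4 and Ogt. In Kat6b the highest position holds 3676 reads, and in Cers4 the highest of 161 positions holds 148.

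Inside the main regions of Ppid, Kat6b, Cers4 and Ogt the reads kept to short stretches. In Ppid the middle 80% of 6150 reads lay between 1094 and 1329 bases from the upstream end of a region of 1486 bases, and the lowest start position was at 512. In Kat6b the middle 80% of 5263 reads lay between 507 and 509 bases of 536. Cers4 was covered more widely, from 430 to 743 bases of 1278, with 148 reads at its highest position. In Ogt the middle 80% of 1244 reads lay between 315 and 598 bases of a region of 1767. None of the 4 regions was covered evenly along its length, and these 4 do not stand for all retained regions.

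Most genes with a retained-intron isoform had few reads on it. Among the 4237 of them with at least 50 sense reads, the median share was 1.39%, the upper quartile began at 12.5%, and 1547 had no retained-intron read. The share was over 10% and up to 50% in 832 genes, over 50% in 372 and over 90% in 92. It lay above 50% with its whole interval in 304 genes, which was 7.17% of these 4237 and 4.76% of all 6381 genes with at least 50 sense reads. Those 304 genes held 47.7% of all retained-intron reads, with a median of 13 start positions and a median of 33.5% of a gene's retained-intron reads at its highest position. In 6 of them the reads lay at 1 position, and in 30 at fewer than 5. When each start position was counted once, 99 genes (1.55%) lay above 50%.

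**Figure D3:**
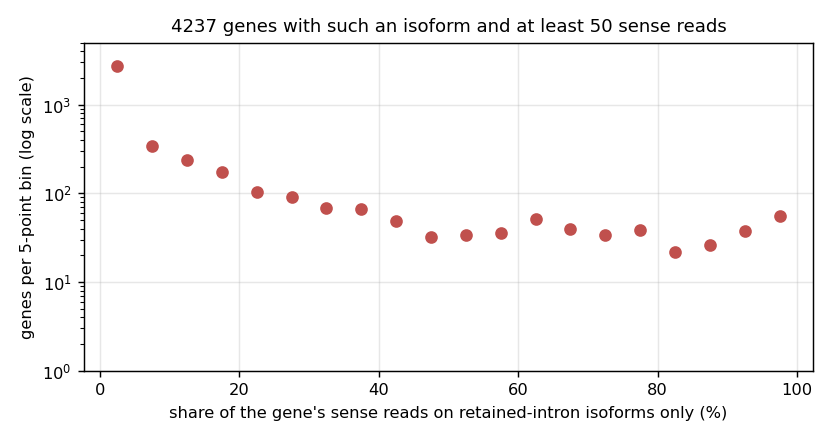
Number of genes (log scale) in each 5-point bin of the share of sense reads that lay on retained-intron isoforms only, in percent, for 4237 genes with such an isoform and at least 50 sense reads. Shares under 10% are most common, the count falls to about 45%, and a smaller group of genes reaches over 90%.

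Reads shared between gene copies bear on these shares. Reads that fit several genes equally well were left out, so a gene whose spliced mRNA resembles pseudogenes or paralogs loses coding reads and keeps reads of its introns. In 35 of the 304 genes the reads left out in this way from coding and other isoforms outnumbered all sense reads kept. With shared reads counted for each gene they fit, 262 of the 304 still had a share above 50%, while 1421 of 10020 genes (14.2%) did in all. Without them it was 304 of 6381 (4.76%). Shares can thus move either way. All 6002 shared reads of Atr and all 3820 of Snrnp70 lay on retained-intron isoforms. Counting them raised the share from 23.0% to 93.9% in Atr and from 41.4% to 90.4% in Snrnp70. In the ribosomal protein genes that follow it fell. The share of Rpl5, a large-subunit ribosomal protein gene, was 96.9% (823 of 849 reads) without its 6344 shared reads from other isoforms and 11.6% with all shared reads. Rpl36a had 219 retained-intron reads and no other, but 882 shared reads from other isoforms, and its share with all shared reads was 20.5%. Rps12 had 116 and no other, with 342 shared reads from other isoforms and 121 from retained-intron isoforms, and a share of 40.9% with all of them.

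The highest shares among genes with at least 3 such start positions were 100%. The 10 of these with most reads were, apart from Rpl36a and Rps12, Isca1, an iron-sulfur cluster assembly gene, with 167 reads, the dipeptidase gene Dpep2 with 134, Numbl, a relative of the Notch regulator Numb, with 98, and Snap91, a clathrin assembly gene of neurons, with 93. Fam229b had 90, Fam220a 88, the kappa opioid receptor gene Oprk1 57 and the carboxypeptidase gene Cpa6 56. In Isca1 137 of the reads were at 1 of 5 positions. None of them had another sense read that fitted 1 gene alone. With no mismatch allowed few reads were left in several of them, 6 in Numbl, 2 in Snap91, 9 in Fam229b, 2 in Oprk1 and 13 in Cpa6, against 120 in Dpep2 and 76 in Fam220a, and Isca1 gave no value. Reads that fitted retained-intron isoforms of these genes and other genes equally well were more numerous than the reads counted, with 2686 in Cpa6, 2304 in Fam229b, 1114 in Dpep2, 551 in Snap91, 435 in Isca1, 408 in Numbl, 98 in Fam220a and 88 in Oprk1. Which gene these reads came from was not tested.

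The other genes with many retained-intron start positions were Gm14391 and Snrnp48. Gm14391, a predicted coding gene on chromosome 2, had 1384 reads at 119 positions, with 1 other sense read, and 930 antisense reads on its retained-intron isoforms. With no mismatch allowed 628 reads of Gm14391 were left, all of them retained-intron reads. A further 221 reads fitted its retained-intron isoforms and other genes equally well, and 232 fitted its other isoforms and other genes. With all shared reads its share was 87.3%. Snrnp48, a gene of the minor spliceosome's U11/U12 particle (chromosome 13, 38204938 to 38227665, plus strand), had 1540 reads at 94 positions, 75.3% of its total. The retained regions of Snrnp48 held 206 reads per kb and its other exons 190.

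Genes of the splicing machinery were examined by class. For this and each later list, 4.76% of all 6381 genes with at least 50 sense reads lay above 50%. Among the 4237 of them with a retained-intron isoform this was 7.17%. Of 22 SR proteins and regulators, which bind exons and recruit the spliceosome, 17 have a retained-intron isoform and 14 had retained-intron reads, 2881 in all. These were 1.75% of the list's sense reads, the median gene's share was 1.89%, and 1 of 21 genes with at least 50 sense reads had a share above 50%, against 4.76% of all genes. That gene was Srsf3, with 211 of 336 reads (62.8%) at 38 positions. Tra2a, a splicing activator gene, had 340 of 2187 reads (15.5%). Of the kinases that phosphorylate SR proteins, Clk1 had 116 of 1159 reads (10.01%), Clk4 47 of 903 (5.205%) and Srpk1 72 of 324 (22.2%), and none of the 7 kinase genes with enough reads lay above 50%. The kinase list's share of all reads was 2.32% and its median gene's share 1.10%. With shared reads included Srpk1 had 89.1%, Clk1 27.9% and Clk4 24.0%.

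Core spliceosome genes and hnRNP genes were taken as further classes. Among 38 core spliceosome genes the retained-intron share of all reads was 4.09% and the median gene's share 3.98%. Of 31 genes 3 lay above 50%, against 4.76% of all 6381 and 7.17% of those with a retained-intron isoform. The 3 were Snrpd2, U2af1 and U2af2, named after their values were seen, with 61 of 84, 62 of 64 and 267 of 294 reads. U2af1, the gene of the factor that reads the acceptor AG, had 1376 further reads of its other isoforms that it shared with other genes. The genes with most retained-intron reads in this list were Rbm25, with 458 of 2786 reads (16.4%), Rbm5 with 312 of 4038 (7.73%), and Snrnp70, the gene of a U1 particle protein, with 309 of 746 (41.4%). With shared reads included, Rbm25 had 50.9%, Rbm5 27.9% and Snrnp70 90.4%. Among 27 hnRNP and paraspeckle genes the median share was 0.188% and none of 26 lay above 50%, against 4.76% of all 6381. Hnrnpa2b1 had 395 of 3588 reads (11.01%) at 47 positions, and Matr3, a nuclear matrix protein gene, 80 of 577 (13.9%), or 2.35% with shared reads included.

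The O-GlcNAc list holds the 2 enzymes that add and remove this sugar. Ogt, the transferase gene (chromosome X, 101640060 to 101684351, plus strand), had 1251 retained-intron reads at 68 positions among 2225 sense reads, or 56.2% (54.1% to 58.3%), and 42.5% by start positions. Mgea5, the gene of the enzyme that removes the sugar, had 1 such read among 74870. A further 4109 reads fitted retained-intron isoforms of Mgea5 and other genes equally well, and with shared reads included its share was 5.204%, while Ogt had no shared read and kept 56.2%. Of the Ogt reads, 1244 lay in 1 intronic region at 101652209 to 101653975.

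Polycomb genes encode the complexes to which the antibody's target belongs, and 487 retained-intron reads fell in them. Ezh2, the gene of the methyltransferase subunit, had 91 among 12795 sense reads (0.711%), with 59 of them at 1 position. Rbbp4, a gene of a histone-binding subunit, had 81 of 193 (42.0%), or 27.8% with no mismatch allowed, and Aebp2, a gene of an accessory subunit, 62 of 320 (19.4%). Of the 17 Polycomb genes with at least 50 sense reads, Cbx6, named after its values were seen, was the 1 gene above 50%, with 49 of 63 reads. Over all 6381 genes with that many reads 4.76% lay above 50%, and 7.17% of those with a retained-intron isoform. The list's share of all reads was 2.23% and its median 0.711%.

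Among 33 other chromatin genes the share of all reads was 5.36% and the median gene's share 0.987%. Of the 33 genes 2 lay above 50%, Kdm6a and Kmt2b. This compares with 4.76% of all 6381 genes with at least 50 sense reads, and 7.17% of those with a retained-intron isoform. Setd5 had 709 reads, 49.6% of its total, at 58 positions. Kdm6a, a histone H3 lysine demethylase gene of the X chromosome, had 333 of 422 (78.9%), and the remodeller gene Atrx 457 of 5684 (8.04%). Kmt2b, a histone methyltransferase gene named after its values were seen, had 299 of 424.

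Pluripotency genes had next to none. Only 5 of the 30 listed genes have a retained-intron isoform in the annotation, and in 108524 sense reads of the list a single retained-intron read was found, in Tbx3.

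Genes of protein synthesis were examined as translation factors and as ribosomal proteins. In translation factor genes the retained-intron share of all reads was 1.17% and the median 0.00272%, with 1 of 27 genes above 50%, against 4.76% of all 6381. That gene was Eif3e, of initiation factor eIF3, with 643 of 935 reads (68.8%), of which 449 were at 1 position, and without that position its share was 39.9%. Pabpc1, the gene of the cytoplasmic poly(A)-binding protein, had 254 of 1763 (14.4%), or 6.15% with shared reads included. Ribosomal protein genes had 16.7% of all reads on retained-intron isoforms only and a median of 4.90%. That share leaves out reads that fit several genes, and it was not computed with them. Of 17 genes 4 lay above 50%, against 4.76% of all 6381 and 7.17% of those with a retained-intron isoform. These 4 were Rpl5 and Rps12, given above, Rps24 and Rpl3. Rps24 had 677 of 882 reads, or 56.3% with shared reads included. Rpl3, named after its values were seen, had 158 of 175 reads and 5454 shared reads of its other isoforms. Rps14, of the small subunit, had 167 of 390 (42.8%), or 22.7% with shared reads included. Rpl36a, described above, is not in the list of 35 genes.

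In the remaining lists at most 1 gene each lay above 50%. Over all 6381 genes with at least 50 sense reads this was 4.76%, and 7.17% of those with a retained-intron isoform. Ribosome biogenesis genes had 0.422% of reads and 0 of 26 genes above 50%, with Dkc1, the pseudouridine synthase gene, at 255 of 857 reads (29.8%) and Gnl3, which encodes nucleostemin, at 182 of 459 (39.7%), or 60.8% with shared reads included. Fbl, which encodes the nucleolar methyltransferase fibrillarin, had 93 of 686 (13.6%), or 1.93% with shared reads included. Aminoacyl-tRNA synthetase genes had 5.49% and 1 of 18, the gene being Yars with 167 of 270 reads, and under alternative settings the share of Yars ranged from 5.50% to 71.4%. Eprs, a bifunctional synthetase gene, had 167 of 1993 (8.38%), or 49.3% with shared reads included, and Sars 31 of 303. DEAD and DEAH box helicase genes had 0.652% and 0 of 22, with Ddx24 at 59 of 145 reads (40.7%), Dhx16 at 49 of 792 (6.19%) and Ddx50 at 45 of 184 (24.5%). With shared reads included these were 83.4%, 47.9% and 60.8%, and with no other gene within 1 further mismatch Ddx50 had 65.2%. RNA decay genes had 4.54% and 0 of 16, with the m6A reader gene Ythdc1 at 158 of 451 reads (35.0%) at 7 positions, or 90.1% with shared reads included. Zcchc8, of a nuclear exosome adaptor, had 55 of 182 and the exonuclease gene Xrn1 45 of 266 (16.9%), or 63.5% with shared reads included. DNA repair and cell cycle genes had 4.90% and 1 of 25, the gene being Ccnl1, which had 1105 of 1250 reads (88.4%) at 11 positions. Atr, a checkpoint kinase gene, and Mdm4, a p53 inhibitor gene, had 120 reads each, 23.0% and 8.65% of their totals. With shared reads included the share was 93.9% in Atr and 4.02% in Mdm4.

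Reads across splice sites set unspliced RNA beside spliced RNA at the same sites, and spliced reads played no part in how the retained-intron reads were chosen. Reads that fit several genes were left out here too. Junction reads shared with gene copies are therefore missing, which can raise the unspliced share, and it was not computed with them. For 6967 introns of coding transcripts that a retained-intron isoform spans, in 3666 genes, reads across the exon-intron boundaries were set beside reads across the spliced junction, with at least 4 bases on each side. Of these introns 98.8% begin with GT and end with AG. Boundary reads numbered 1054 at donors and 1417 at acceptors, against 31565 junction reads, so that 7.26% of reads at these splice sites were unspliced (6.99% to 7.54%). An unspliced intron offers 2 boundaries and a spliced one a single junction, and against the junction reads the donor reads alone made up 3.23% and the acceptor reads alone 4.30%. The 3 introns with most junction reads held 14033 of them, and without those 3 the unspliced share was 10.6%. In all 285 introns had a boundary read, 619 had a junction read and 74 had reads of each kind.

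Intron by intron, spliced reads led in most cases. Of 146 introns with at least 20 reads at their splice sites, 128 (87.7%) had an unspliced share whose interval lay below 50%, 13 (8.9%) had one above 50%, and 95 had no boundary read. In 9 of the 13 the boundary reads all lay at 1 position. Each of the 13 had such reads at the donor or the acceptor alone, with none at its other boundary. Reads at 1 boundary do not show that an intron was kept over its whole length. The introns with most boundary reads, named after their values were seen, were intron 4 of Asns, which encodes asparagine synthetase, with 90 donor, 183 acceptor and 5105 junction reads (5.08% unspliced, 4.50% to 5.70%), and intron 1 of Mad2l1, a spindle checkpoint gene, with 129 acceptor reads and no junction read (interval of the unspliced share 97.2% to 100%). Intron 2 of Trmt44, a tRNA methyltransferase gene, had 113 acceptor reads and no junction read, and intron 5 of Rps24 had 110 donor reads, all at 1 position, and 13 junction reads (89.4%). Rps24 as a whole had 337 left-out reads that fitted its other isoforms and other genes equally well. Whether any of them crossed this junction was not examined. Intron 3 of Bsg, the gene of the membrane protein basigin, had 4 donor, 92 acceptor and 3919 junction reads (2.39%). Intron 8 of Hsp90ab1, a chaperone gene, had 75, 8 and 267 (23.7%). Intron 10 of Eif4a2, which is also in the rule for named genes, had 46 acceptor and 350 junction reads (11.6%) with 2173 retained-intron reads inside its 454 bases.

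**Figure D4:**
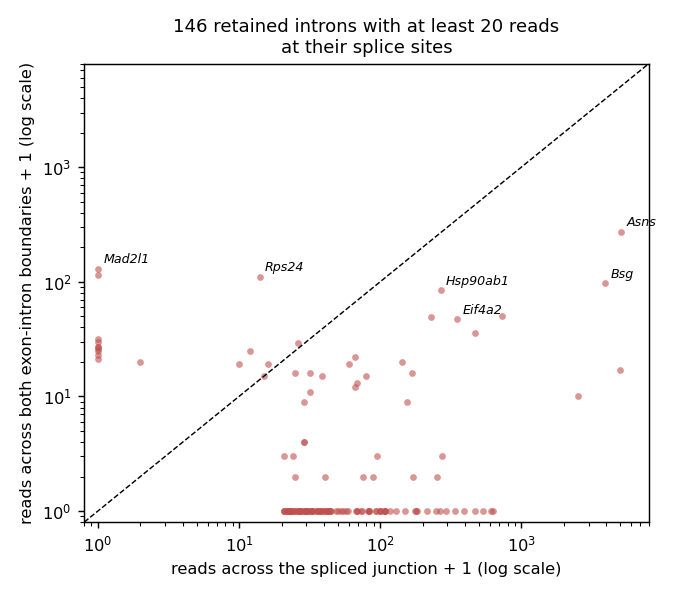
Reads across both exon-intron boundaries, plus 1, against reads across the spliced junction, plus 1 (log scales), for 146 retained introns with at least 20 reads at their splice sites; the dashed line marks equal numbers. 128 introns have an unspliced share with its interval below 50% and lie under the line, and Mad2l1 and Rps24 are among the 13 above it. Each of those 13 has boundary reads at the donor or the acceptor alone.

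Pooled over the introns, reads of their inside outnumbered reads at their edges. For 40-base reads, counted per 1000 possible start positions, the inside of the introns had 12.3, the donor boundary 4.74, the acceptor boundary 6.36 and the spliced junction 129. Introns with many reads weigh most in these pooled rates, which were not computed without them. Ppid, Kat6b and Serbp1 are among the genes with most reads inside an intron and are not typical. Intron 3 of Ppid had 6150 retained-intron reads and 5 boundary reads, intron 7 of Kat6b had 5538 and 6, and intron 4 of Serbp1 2103 and 7. Introns with a boundary read had a median length of 263 bases and those without one 276, and the last intron of a transcript made up 9.12% of the introns with a boundary read against 8.14% of all. The 3 introns with reads of each kind that are shown here let a reader see the splice sites to which the boundary counts belong. The capitals mark the intron and the lower case the 20 coding bases of the exon on each side.
Asns intron 4 of 11 (chr6:7682016-7682290, minus strand): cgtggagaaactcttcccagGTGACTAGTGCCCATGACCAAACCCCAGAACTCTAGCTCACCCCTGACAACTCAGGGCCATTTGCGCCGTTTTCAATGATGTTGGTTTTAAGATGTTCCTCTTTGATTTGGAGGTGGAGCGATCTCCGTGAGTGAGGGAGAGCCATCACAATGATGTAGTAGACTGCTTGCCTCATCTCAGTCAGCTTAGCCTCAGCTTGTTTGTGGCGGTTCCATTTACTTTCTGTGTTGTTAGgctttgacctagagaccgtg
Bsg intron 3 of 6 (chr10:79710121-79710279, plus strand): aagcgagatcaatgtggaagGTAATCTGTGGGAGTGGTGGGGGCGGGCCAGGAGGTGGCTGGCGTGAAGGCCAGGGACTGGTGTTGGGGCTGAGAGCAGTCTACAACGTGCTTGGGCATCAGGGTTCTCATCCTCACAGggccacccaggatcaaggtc
Hsp90ab1 intron 8 of 10 (chr17:45569107-45569259, minus strand): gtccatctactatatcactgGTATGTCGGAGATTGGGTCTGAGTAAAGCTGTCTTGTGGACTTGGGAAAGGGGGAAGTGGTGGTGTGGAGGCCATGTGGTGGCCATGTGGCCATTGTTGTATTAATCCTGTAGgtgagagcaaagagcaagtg

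Retained regions differed in kind and length. The annotation holds 27659 such regions in coding genes, together 15946 kb, of which 6906 had a read and 596 had at least 50. Regions that run on from an upstream exon and end without a downstream one held 46.4% of the reads, regions bounded by exons on each side 32.9%, regions with only a downstream exon 19.01% and regions with none 1.68%. In genes with at least 50 sense reads, the regions with at least 50 reads had a median length of 1674.5 bases and a median GC content of 42.4%, those with 1 to 49 reads 816.5 bases and 43.1%, and those without reads 215.5 bases and 45.1%. A longer region offers more positions for a read, and this was not corrected for. Annotated small RNA genes on the same strand overlapped 59 of the regions with reads, which held 1371 reads, and genes on the opposite strand overlapped 534 regions with 17058 reads.

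Per length, retained regions were less covered than other exons. Over the 9119 genes they had 11.9 reads per kb against 103 in the other exons, and 1.34 start positions per kb against 4.74. Without Serbp1 the read densities were 11.7 and 85.4. Among 2690 genes with at least 50 sense reads and a retained-intron read, 524 (19.5%) had more reads per kb in their retained regions than in their other exons.

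The 3 capital bases in the sequences above recurred over all positions. At RNA bases 7, 8 and 9 downstream of the start position, just past the stretch opposite the 6 left-out read bases, A, G and A made up 52.0%, 51.3% and 38.6% of 19637 retained-intron positions, against 56.3%, 51.3% and 42.1% of 24127 coding positions drawn at random. The word AGA stood there at 19.3% of retained-intron positions and 21.5% of coding positions, and in 2.11% of all 3-base windows of the annotated retained regions. The 2 classes of reads thus shared this feature, and whether the retained-intron reads of a gene depend on it was not tested. A match is a description of the letters only.

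**Figure D5:**
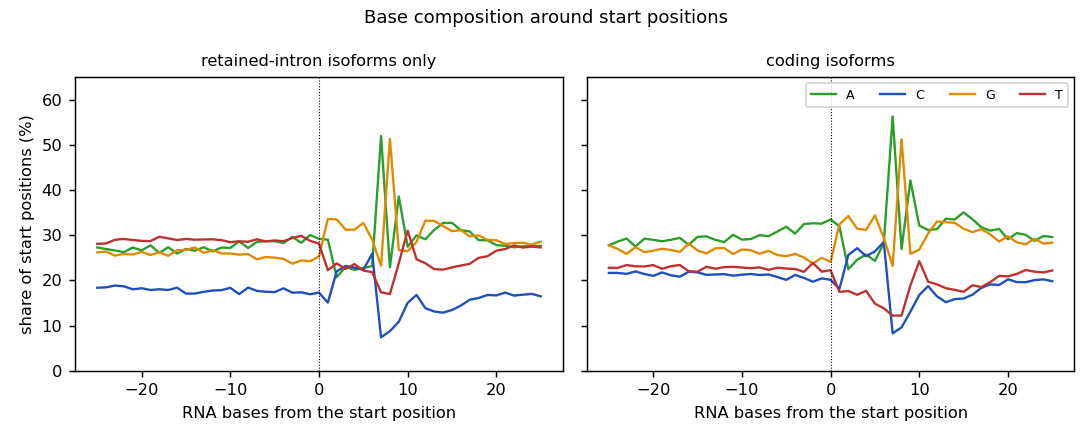
Share of start positions (%) with each base, against the distance in RNA bases downstream of the start position (the dotted line is the start position), for retained-intron reads (left) and coding reads (right). A and G peak at bases 7 and 8 in each panel, at 52.0% and 51.3% for retained-intron positions and at 56.3% and 51.3% for coding positions.

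Other properties set the retained-intron reads apart from coding reads as descriptions of this table. Of their reads 77.3% matched without a mismatch, against 88.9% of coding reads, and by distinct sequences 59.1% against 63.0%. Another gene lay within 1 further mismatch for 9.02% of them and for 4.66% of coding reads. Reads antisense to retained-intron isoforms only numbered 63177, so that 25.03% of the reads of these isoforms were antisense (24.9% to 25.2%), against 11.8% for coding isoforms, and by start positions 35.0% against 21.5%. Where the antisense reads came from was not tested.

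The table's reads of 36 and of 40 bases were also examined apart. Retained-intron reads were 3.15% of the sense reads of 36 bases and 3.51% of those of 40 bases. Of 8516 start positions of the shorter reads 41.7% were also seen in the longer ones, and these positions held 62.0% of the shorter retained-intron reads. Of the 3002 genes with 36-base reads 80.4% had 40-base reads too, and of the 3772 genes with 40-base reads 64.0% had 36-base reads. Which libraries the lengths belong to was not analysed here.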

How the data were processed

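Reads of RIP-seq libraries from mouse embryonic stem cells were analysed from the deposited table, in which the authors give a raw read count for each distinct sequence, not scaled to depth. Apart from the terms uniq, noribo and nohomop in the table's name, their filters and aligner are not given in the sources used here. The build mm9 appears in the submitters' processing notes, whereas the table has no positions. Of 34072479 reads, 31529044 had at least 26 bases and were searched with bwa 0.7.19 in GENCODE M21 transcripts, on GRCm38, after the leading 6 bases were left out, with up to 2 mismatches, no gaps and up to 1000 listed placements. Reads of several genes were left out of gene counts. Intervals are exact Clopper-Pearson or Poisson intervals (95%, scipy 1.17.1). Introns outside annotated isoforms were not searched.

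Of 8125 simulated reads drawn inside retained regions, 97.5% were called correctly, 2.31% fitted several genes or none and 0.148% were given to a wrong gene or strand. Of 20000 simulated coding reads 0.01% were called retained-intron reads. All simulated reads came from the annotated transcripts that were searched, so this check cannot show how reads of other sequence were called.

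The genes named are the 15 with most retained-intron reads, the 10 with most such start positions, the 10 with the highest share among genes with at least 50 sense reads and 3 such positions, and the 3 with most such reads in each of 15 lists (379 symbols). A gene that the rule takes is not reported here. The reads described and the lists were chosen with earlier results of these data known. Tests between libraries were not possible with 1 pooled column. The alternatives tried are given in the closing section.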

Additional observations from a re-analysis of the deposited data

How the results depend on the processing

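No paired analysis was possible because the table has 1 pooled count column that is tied to no library. The retained-intron share of sense reads, 3.46%, was 3.99% by distinct sequences, 6.92% by start positions, 3.02% with no mismatch, 3.15% and 3.51% for reads of 36 and 40 bases, 3.30% without the most-read start position of each gene, 3.30% with no other gene within 1 further mismatch, 3.92% in genes without an overlapping gene, 3.49% with 8 leading bases left out and, in an alternative chosen after seeing the data, 3.93% without Serbp1. The number of genes, 4460, was 1763 among genes without an overlapping gene. Genes with a share above 50%, 304 of 6381, were 179 by distinct sequences, 99 by start positions, 47 of 1471 for 36-base reads, 197 of 5209 without the most-read position, 115 of 2742 without an overlapping gene, 117 of 2706 with a minimum of 200 reads and, chosen after seeing the data, 1421 of 10020 with shared reads included. The unspliced share at splice sites, 7.26%, was 9.38% by distinct sequences, 7.61% with at least 30 matched bases, 6.05% for 36-base and 7.90% for 40-base reads. Of 67 named genes 46 kept their side of 50% in every setting run. The share ranged from 35.2% to 58.6% in Ogt, 10.2% to 68.2% in Slc38a1 and 3.76% to 99.7% in Pak2. The cause was not tested. Matching to the whole genome and leaving out repeats were not run, as no genome was used here. A gene with few reads has a wide interval, so fewer genes can lie above 50% where reads are thinned.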

Other observations

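Antisense reads on retained-intron isoforms had leading genes of their own. Such reads lay in 3610 genes, and 2635 genes had reads of each orientation, which were 73.0% of the genes with antisense reads and 59.1% of the genes with sense reads. Krba1 had 1171 antisense reads, of which 877 were at 1 position, and 152 sense reads. Gstz1, which encodes maleylacetoacetate isomerase, had 1124 antisense reads at 45 positions and 13 sense reads. Rbx1, a RING subunit gene of cullin ubiquitin ligases, had 937 and 32, and Caml 668 and 4. In Setd5 572 of 619 antisense reads were at 1 position, beside 709 sense reads, and Adam23 had 539 antisense and 590 sense reads at 35 antisense positions. These genes were chosen after their values were seen.

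By chromosome, retained-intron reads were most frequent on chromosome 3, with 20482 reads in 268 genes (10.8%), followed by chromosome 6 with 18323 in 288 genes (9.68%). Ppid alone gave 6197 of the reads on chromosome 3. Chromosome 7 had the most genes, 399, but 5.29% of the reads.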
